A study of Caenorhabditis elegans with 2 samples.

Results

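The regions described here are SDZ-12 binding peaks that lie away from annotated gene starts in the nematode Caenorhabditis elegans. They were chosen by position: the summit of a peak in the authors' optimal list had to lie in no window from 1000 bp upstream to 200 bp downstream of the 5' end of any annotated gene of any kind. Of 665 optimal peaks, 215 met this rule and 450 lay in a promoter window. The windows leave 65.4% of the nuclear genome outside. All libraries came from whole animals of strain OP670 at the L4 larval stage, of mixed sex and 71 hours of age, synchronised by starving L1 larvae after bleaching. This strain carries the unc-119(tm4063) mutation and the transgene wgIs670, which joins sdz-12 to the tags TY1, EGFP and 3xFLAG and adds a working copy of unc-119(+). Chromatin was precipitated with an antibody against GFP in 2 biological replicates, which form 1 group. The antibody field of the labels names sdz-12, while their description names anti-GFP. The sources used here do not state the transgene's copy number or its promoter, and all tissues of the animals were pooled.

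SDZ-12 belongs to the C2H2 zinc finger proteins, and its gene was first noted as a SKN-1-dependent transcript of the early embryo. In the compact worm genome most factor binding sites lie close upstream of genes, many genes are transcribed towards each other with little sequence between their ends, and some distal sites act as enhancers. Neighbouring convergent genes can overlap at their 3' ends, so a peak in the last exon of one gene can lie just past the end of another.

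The summit sequences of 2 members that follow the end of a neighbouring gene are shown first, since most later results concern such positions. They are from the RefSeq copy of assembly WBcel235 (ce11), plus strand, with the summit base in capitals. The dos-3 sequence is III:835949-835977 and the lelo-2 sequence is III:1420055-1420083.
dos-3: aatccacgttcacgGattccgggtgataa
lelo-2: atactctccggcagTggttttcccatagt

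A second set of sequences carries the word AGACGCAG, in capitals below, which was found on either strand within about 50 bp of 13 of 215 member summits (6.05%). The word was picked after counting all 13329 distinct 8-base words of the summit windows, as the one most in excess over flanking windows of the same length centred 300 bp away, so its count is a description with no test. It was in 0 of 215 left flanks and in 0.465% of right flanks, in 1.78% of promoter-window peaks, in 0.952% of other pooled calls outside windows and in 0.463% of all tiles of that length outside windows. Introns and intergenic sequence, with 118 of all 215 members, held 12 of the 13. Coding exons, with 76 of all members, held 0. The 5' UTR of lin-56, a gene that regulates vulval cell fate, held the remaining one. The centre of the word lay 1 to 46 bp from the summit (median 17). The 10 sites below are each 30 bases, read 5' to 3' on the strand that holds the word, and are named by the host gene or by the genes on both sides.
Y54G2A.77: ggaggagagggAGACGCAGacagcgcgcgc
mdt-26: agaggggttcgAGACGCAGaggaggtatct
epg-9: agacactggtgAGACGCAGacatcaaaaga
let-765 and mdh-2: gagttacagagAGACGCAGacattgcgagg
mrpl-51 and sqst-1: ggcccaaggtgAGACGCAGattgcagacgg
gtr-1 and F25E2.2: gaccacacaagAGACGCAGcaacaaacacc
W08G11.1 and pptr-1: aagacgtcgagAGACGCAGacacgtcgtgc
T04C4.3 and fnip-2: gagaaattaagAGACGCAGagaatagttgg
Y43F8B.2: gaagacgttggAGACGCAGatggttagacg
cpg-1 and atf-7: tcaaattcgatAGACGCAGaggttgatttt

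The authors' signal value, a score of enrichment on a scale that the sources used here do not state, was 262.8 at the Y54G2A.77 site (IV:2765212-2765241), the strongest, and 145.0 at the cpg-1 and atf-7 site (III:4491541-4491570), the weakest of the 13. GACGCAGA (12 members) and GAGACGCA (11 members), also high in the count, overlap the same letters. Of 20 further words from a list of known motifs, the GAGA repeat GAGAGA was in 14.9% of member windows. It was in 5.12% and 8.37% of the left and right flanks and in 11.6% of promoter-window peaks. The GA-rich core CTCTGCG, known from the worm zinc finger factor EOR-1 and overlapping AGACGCAG, was in 3.26% of members and in 0.562% of tiles. It was in 1.86% of left flanks, 0% of right flanks and 2.67% of promoter-window peaks, the last close to the member share. The run TTTTTT went the other way, with 16.3% of member windows against 41.4% and 45.1% of the flanks and 21.3% of promoter-window peaks. The short SKN-1 motif GTCAT was in 13.95% of members, against 15.3% and 10.2% of the flanks, 10.7% of promoter-window peaks and 13.6% of tiles. GC content also differed between summits and flanks, as given below, and its part in these word counts was not tested.

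Members were of lower signal than promoter-window peaks. Their signal ran from 136.4 to 451.2 with a median of 153.4, against a median of 171.2 at promoter-window peaks. Among the 100 strongest optimal peaks 11 were members, and 138 of 215 members (64.2%) had ranks 333 to 665, against 43.3% of promoter-window peaks. Promoter windows hold many tRNA and other small RNA genes. With peaks left out that were within 200 bp of a gene for a tRNA, snoRNA or snRNA, the median of promoter-window peaks was 164.4, and only 1 member, in a coding exon of the dynein gene dhc-4, lay so close to one. With 1 group of 2 replicates no test across samples was possible, and the 95% Wilson intervals below cover counting error over peaks only.

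Many members lay just past the 3' ends of protein-coding genes. Within the stretch from 100 to under 500 bp past the nearest such end lay 61 of 215 members (28.4%, interval 22.8 to 34.7%). The same stretch makes up 5.78% of the sequence outside windows and held 7.57% of the 19328 other pooled calls outside windows that overlap no optimal peak. The stretch of the same length inside the gene before the end held 19 members (8.84%, interval 5.73 to 13.4%), against 5.63% of the sequence. Each summit was placed by its nearest end alone, so a summit past that end and farther inside its host's end counted only as past. Of the 61, 28 lay within a host on the opposite strand, most of them also under 500 bp inside its end. The counts of 61 and 19 therefore do not set sites outside genes against sites within them. The counts dropped on both sides of the stretch past the end. In steps of 100 bp past the end there were 6, 18, 17, 11 and 15 members, then 3 and 2, and 0 from 700 to 1000 bp. The stretch was chosen after the positions were seen and is a description.

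**Figure D1:**
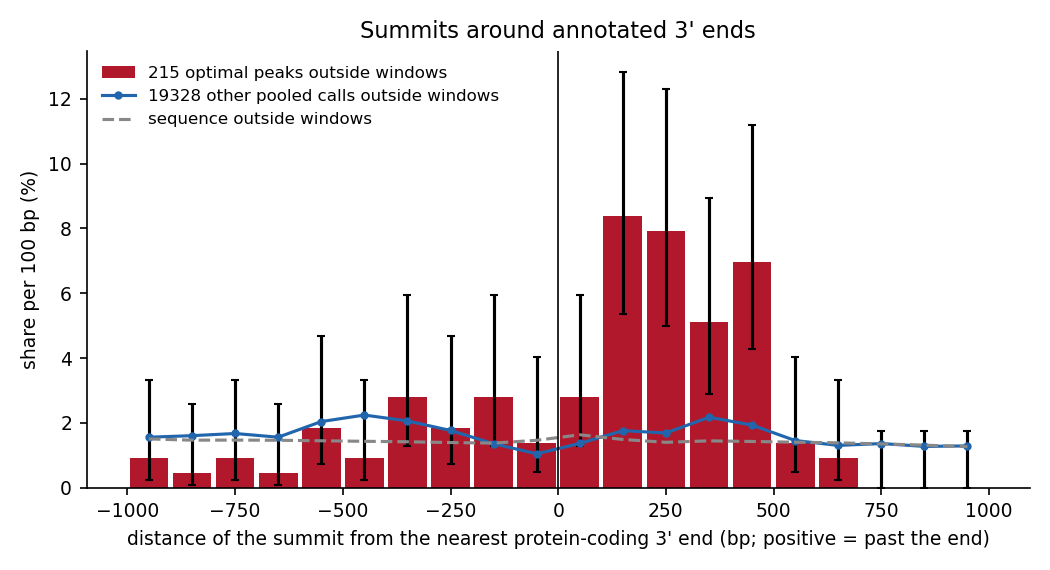
Share of summits in 100 bp steps of distance from the nearest protein-coding 3' end, positive past the end. Bars are the 215 optimal peaks outside promoter windows with 95% Wilson intervals, the solid line is the 19328 other pooled calls outside windows, and the dashed line is the sequence outside windows. The 4 steps from 100 to 500 bp past the end hold 5.12% to 8.37% of members each, while the 2 lines there run from 1.40% to 2.18%.

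The share past a 3' end fell with the rank of the call. Among members of ranks 1 to 332 it was 39.0% (30 of 77), and among those of ranks 333 to 665 it was 22.5% (31 of 138). Below the optimal list it was 17.8% for other pooled calls of ranks 666 to 1000, 10.7% for ranks 1001 to 2000, 9.18% for ranks 2001 to 5000 and 6.60% for ranks 20001 to 30000. The replicate lists showed it separately, with 56 of 247 (22.7%) of the strongest replicate 1 calls outside windows and 59 of 244 (24.2%) of those of replicate 2. Promoter-window peaks also lay in this stretch, 94 of 450 (20.9%), against 8.69% of the window sequence.

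**Figure D2:**
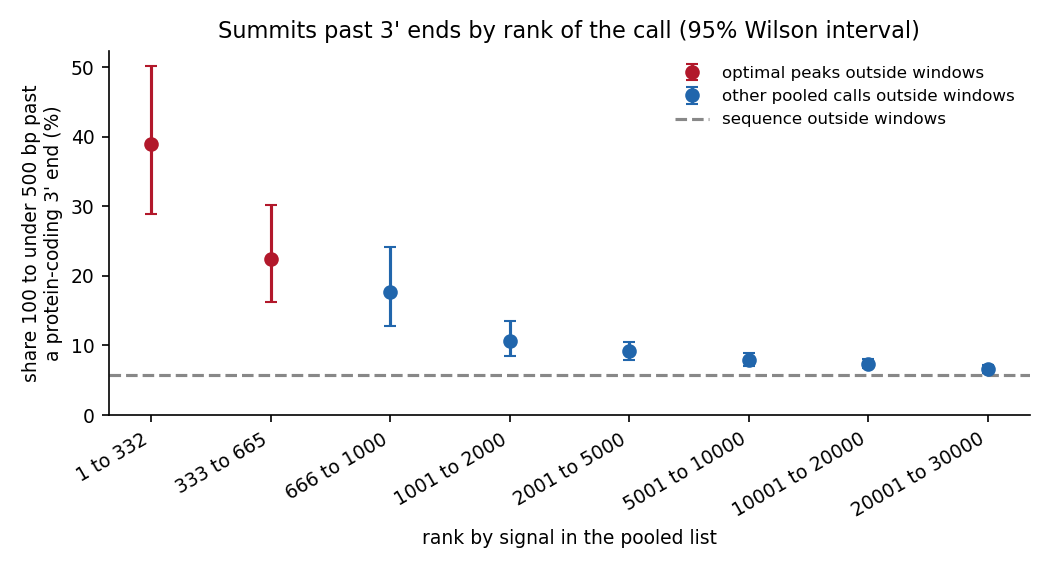
Share of summits outside promoter windows that lie 100 to under 500 bp past a protein-coding 3' end, by rank of the call in the pooled list, with 95% Wilson intervals. The 2 points on the left are members (39.0% and 22.5%), the others are pooled calls outside the optimal list (17.8% down to 6.60%), and the dashed line is the sequence outside windows (5.78%).

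The 5 strongest coding-exon members were all of this kind. The peak at III:835810-836116, the strongest member, lay in exon 11 of 11 of dos-3, which encodes a secreted protein related to Notch co-ligands. Its signal was 451.2, with 262.7 in replicate 1 (rank 3) and 204.7 in replicate 2 (rank 7). The summit was 212 bp inside the 3' end of dos-3 and 149 bp past that of zip-2, a bZIP factor of the pathogen response transcribed towards it. At I:7872120-7872539 a peak of signal 349.6 (201.8 and 141.3 in replicates 1 and 2) lay in exon 10 of 10 of suro-1, a gene of body shape. That summit was 230 bp past the end of pck-2, a phosphoenolpyruvate carboxykinase gene. A weaker member (signal 152.2) lay 200 bp farther on, also within suro-1, and a further one (237.1) in intron 2 of pck-2 itself, 1002 bp from its 5' end. Both replicates ranked the 2 strongest of these peaks within their first 37 calls.

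The other 3 of these 5 had the same layout. In exon 7 of 7 of the bestrophin family gene best-18 (III:10214434-10214853) a peak of signal 229.0 lay 127 bp past the end of cts-1, which encodes citrate synthase. Its replicate signals were 129.8 and 107.3. In exon 7 of 7 of lelo-2 (III:1419859-1420278) a peak of signal 262.3 lay 200 bp past the end of Y82E9BR.3, with replicate signals of 141.9 and 140.2. In exon 5 of 5 of F53F10.1 (I:3834055-3834474) a peak of signal 252.5 lay 140 bp past the end of F53F10.2, with replicate signals of 130.7 and 120.0. These 3 peaks were close to even in the 2 replicate lists, whose scaling is not known.

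Of the 61 members past an end, 28 lay within a host gene on the opposite strand, 6 within a host on the same strand and 27 between genes. Of the 19 in coding exons, 16 were in a host on the opposite strand. Among the intergenic ones 18 lay between tandem and 9 between convergent protein-coding genes. The strongest intergenic member (I:6094344-6094763, signal 257.9, replicate signals 139.9 and 131.3) lay 117 bp past the end of oaz-1, the ornithine decarboxylase antizyme gene that limits polyamine synthesis, and 506 bp from the end of ZK484.7. A peak of signal 216.3 (III:7369567-7369986) lay between the ends of T20B12.4 and mml-1, a Myc and Mondo family factor, 239 bp and 353 bp away. It was stronger in replicate 1 (142.5, rank 52) than in replicate 2 (66.57, rank 927). At X:1503648-1503839 a peak of signal 211.5, with 113.3 and 113.2 in the replicates, lay between F09E10.1 and the long noncoding RNA gene tts-1.

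The 61 members followed 58 distinct genes, of which 93.1% have an annotated 3' UTR, against 84.1% of all protein-coding genes. The genes named next were picked for their known roles after their positions were seen. No share of genes with such roles was worked out, among the 58 or among all genes. Energy genes among them were vha-14, a subunit of the vacuolar proton pump (member signal 184.8, 280 bp past the end), and mdh-2, a malate dehydrogenase (168.6, 269 bp). Protein folding and stress genes were unc-23, a BAG family chaperone cofactor (169.1, 131 bp), fkb-6, an immunophilin (164.9, 308 bp), xbp-1, the bZIP factor of the unfolded protein response (144.0, 250 bp), and atf-4, a bZIP factor of the integrated stress response (161.7, 297 bp). Signalling genes were daf-14, a SMAD of the dauer pathway (179.6, 434 bp), and nlp-40, a neuropeptide gene of the defecation rhythm (149.4, 173 bp). Members past an end had signals from 136.7 to 451.2 with a median of 163.3, against 136.4 to 262.8 with a median of 150.1 at the other 154 members. Of the 61, 29 (47.5%) had a call of each replicate among its 665 strongest within 200 bp.

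By annotation class, 76 members had the summit in a coding exon (35.3%, interval 29.3 to 41.9%), 64 were intergenic (29.8%, interval 24.1 to 36.2%) and 54 lay in an intron (25.1%, interval 19.8 to 31.3%). Another 10 lay in a 3' UTR, 8 in a 5' UTR and 3 in other exons. Coding exons make up 27.3% of the sequence outside windows and held 43.2% of other pooled calls there. Introns make up 41.2% of it and held 33.1% of other calls, and intergenic sequence 24.9% and 16.97%. In the replicate lists taken alone the order of the classes varied: replicate 1 gave 30.8% in introns, 29.1% in coding exons and 27.1% intergenic, and replicate 2 gave 42.6% in coding exons, 24.6% in introns and 24.2% intergenic. In coding exons, 27 of 76 members lay in the last exon and 7 in the first. Within their hosts the coding-exon summits were at 73.3% of the gene length from the 5' end (median), and the intronic ones at 49.1%. The windows take out gene starts, so first exons and early positions are held down by the rule itself. No share of sequence or of other calls was set beside these exon counts and positions.

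**Figure D3:**
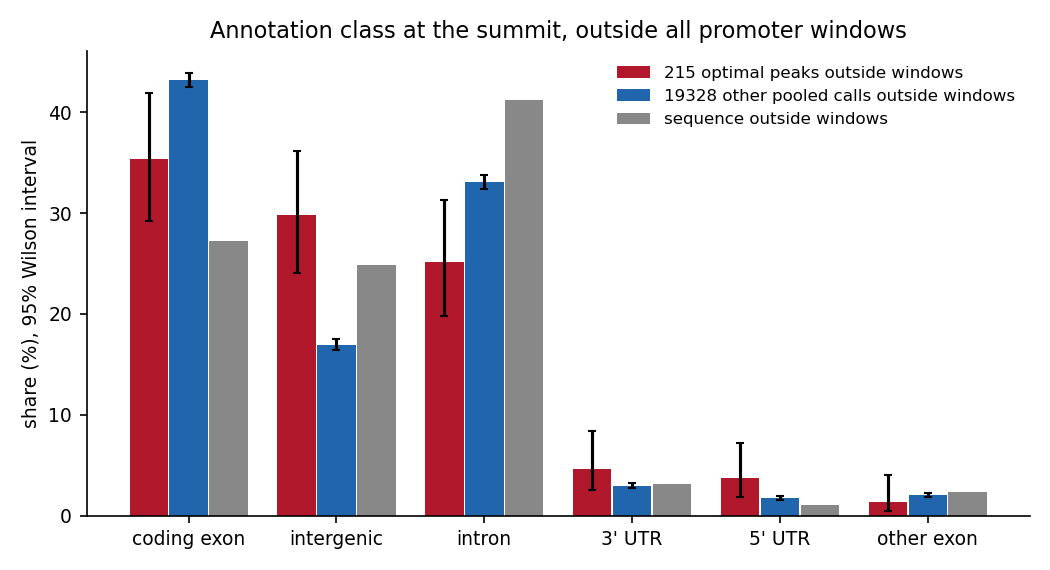
Share of summits in each annotation class outside all promoter windows. From left to right in each class, bars are the 215 members, the 19328 other pooled calls (both with 95% Wilson intervals) and the sequence. Members in introns (25.1%) are below both the other calls (33.1%) and the sequence (41.2%), and intergenic members (29.8%) are above the other calls (16.97%), while the sequence (24.9%) lies within their interval.

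Coding-exon members that did not follow the end of another gene included cuticle collagens, the secreted structural proteins of the worm's exoskeleton. A peak at IV:6377561-6377980, with signals of 102.9 and 101.1 in the replicates, lay in exon 2 of 2 of bli-6. Another 4 collagen genes, col-91, col-49, col-104 and col-20, also held a member, which makes 5 of 182 genes of the list (2.75%, interval 1.18 to 6.27%), against 138 of 19973 protein-coding genes (0.691%). The bli-6 member had one of the 665 strongest calls of each replicate within 200 bp. Those in col-91 and col-49 had one in replicate 2 alone, and that in col-104 in neither. Replicate support of the col-20 member is not given here. Collagen genes resemble each other in sequence, so that reads of these genes may be hard to place, although 0 of 215 summit windows had an exact copy elsewhere. The lists overlap in part, and 17 others were examined in the same way. Notch signalling genes held members in 2 of 33, dos-3 and lag-1, the DNA-binding effector of the pathway. Nuclear hormone receptors held 2 of 269 (nhr-49, a regulator of fat metabolism, and nhr-88), chemoreceptors 3 of 1300 (srt-52, srh-2 and srt-47), the extracellular matrix list 2 of 29 (dos-3 and suro-1), chaperones 1 of 64 (hsp-1), transcription factor families 1 of 175 (tra-1, of sex determination) and neuronal genes 1 of 192 (the potassium channel gene twk-13).

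In 10 of the 18 lists 0 genes held a member in their body, which allows shares of up to 3.70% of 81 cytosolic and 4.48% of 67 mitochondrial ribosomal protein genes, 4.23% of 71 translation genes, 4.17% of 72 muscle genes, 2.80% of 107 chromatin genes, 6.0% of 50 histone genes, 2.21% of 136 germline genes, 6.98% of 43 intestinal genes, 15% of 20 heterochronic genes and 3.49% of 86 genes of the SKN-1 pathway. These limits are no lower than the share over all genes, so a lack of members there was not detectable. Genes whose promoter holds a peak are not counted here.

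Intronic members were led by Y54G2A.77 (IV:2765028-2765447), with a signal of 262.8 in intron 5 of 6 and replicate signals of 167.2 and 100.6. After the pck-2 member, Y65A5A.2 followed with 234.9 in intron 3 of 4 (IV:16415229-16415648), and mom-1, which encodes the Wnt-processing enzyme Porcupine, with 227.0 in intron 7 of 7 (X:6296329-6296748; ranks 127 and 106 in the replicates). The member in intron 2 of 7 of mdt-26, a Mediator complex gene (II:5661752-5662171, signal 221.9), ranked 170 in replicate 1. Its summit was 203 bp from that of a stronger promoter-window peak, of signal 537.7, whose replicate 1 call ranked 1. The replicate 2 call nearest to the member also ranked 1, but it was closer to that promoter-window peak (74 bp away) than to the member and may be its call. Other intronic members were in epg-9, an autophagy gene (209.9; intron 2 of 5), and scc-2, the cohesin loader gene (203.0; intron 1 of 26). Of 52 introns with a protein-coding host, 16 were the first intron and 8 the last.

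Among intergenic members, 44 of 64 lay between tandem genes (68.8%), 12 between convergent (18.8%) and 8 between divergent ones (12.5%). The intergenic sequence outside windows was 54.4% tandem, 14.8% convergent and 30.8% divergent. The nearest protein-coding 5' end was over 2000 bp away for 31 of them, and 22 lay over 1000 and up to 2000 bp upstream of one. A member of the divergent kind (V:20778198-20778617, signal 203.0, replicates 124.9 and 69.41) lay 1999 bp upstream of hif-1, the hypoxia-inducible factor gene, with F38A6.4 on its other side. Other distal members were 635 bp past the end of F55G7.5 with F55G7.6 on the other side (X:11937285-11937704, signal 246.2, replicates 124.8 and 120.0) and, between W04G3.11 and a tRNA gene, 3343 bp past the end of W04G3.11 and 1461 bp upstream of the tRNA gene (X:11094002-11094421, signal 243.1, replicates 103.2 and 142.5). A member 1279 bp past the end of hpk-1, a kinase gene of stress responses and longevity, had 207.5 (X:4209082-4209501; replicates 108.8 and 92.09), with F20B6.9 on its other side. Between the tandem genes F58D12.1 and F58D12.3, 598 bp past the end of F58D12.1, lay a member of signal 227.2 (V:14055051-14055470; replicates 103.8 and 123.5). A member 2609 bp upstream of nhr-88, a nuclear hormone receptor gene, and past the end of K08A2.14 had 200.1 (II:2973820-2974239; replicates 86.67 and 112.4).

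No member in a UTR was among the 100 strongest optimal peaks. In the 5' UTR they ran from 145.0 to 188.9, led by lin-56 (II:10450431-10450850; replicates 78.24 and 115.3), and Y54G2A.11 held 3 of the 8. One in the 5' UTR of an internal transcript of tir-1, an innate immunity adaptor gene, lay 28486 bp from the gene's 5' end (157.5). The one in pcf-11, a gene of transcription termination and 3' end processing, had 156.5 (III:5025184-5025603; replicates 85.74 and 72.5). In the 3' UTR they ran from 137.4 to 188.3, led by nlf-1, which aids surface delivery of a sodium leak channel (X:1012606-1013025; replicates 111.4 and 97.43), and included those in T19A5.3 (169.1; the member past the end of unc-23), Y71H2AM.3 (157.8), mnk-1 (154.4) and W06H8.6 (153.6). The 3 members in other exons had 272.5 and 230.1, both in pseudogenes, and 210.9 in tos-1. The first of them (WBGene00018862, I:5372240-5372659) lay 401 bp past the end of tent-5, a poly(A) polymerase gene, with 143.3 and 128.5 in the replicates. The second (WBGene00005825, V:7432734-7433153) had 125.6 and 66.94.

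Some members lay at starts of shorter transcripts, which the windows at gene ends leave out. A window of the same size at an annotated transcript 5' end held 28 of 215 members (13.0%, interval 9.17 to 18.2%), against 6.17% of the sequence outside gene windows and 8.05% of other calls. They were 14 of 54 intronic, 10 of 76 coding-exon and 4 of 8 5' UTR members. The median distance of members to the nearest 5' end of any gene was 1588 bp (203 to 14564) and to the nearest 3' end 767 bp (11 to 9870). The rule keeps members away from all 5' ends, but from 3' ends only where a promoter window covers them, so these medians do not compare like with like. The edge of the nearest window was a median of 973 bp away, and 23 members were within 100 bp of one. Members nearest an edge were in W09D10.5 (3 bp, signal 147.0), upstream of fbxb-58 (5 bp, 138.9) and in suco-1 (8 bp, 153.4). The nearest optimal peaks inside a window were at III:13275960 (142.1), V:13653938 (184.2) and II:2987314 (156.5).

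The summits were rich in G and C relative to their surroundings in every large class. Over the window of about 50 bp to each side of the summit the GC content of members was 46.6 ± 8.88% (SD, n = 215 peaks), against 36.5 ± 7.23% in windows 300 bp to each side, and it was higher at the summit in 182 of 215. Promoter-window peaks had 48.1 ± 8.67% against 36.1% in flanks. Coding-exon members had 49.4% and flanks of 37.6%, with 42.9% over all coding exons outside windows. Intronic members had 46.3% and flanks of 36.1%, with 32.0% over all such introns. Intergenic members had 44.9% and flanks of 35.4%, with 34.1% over such sequence. The 61 members past a 3' end were lower, at 42.8 ± 7.26% with flanks of 34.0%, than the other 154 at 48.1 ± 9.03% with flanks of 37.5%. GC content can affect how sequencing libraries are read, and its part in these values was not tested.

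**Figure D4:**
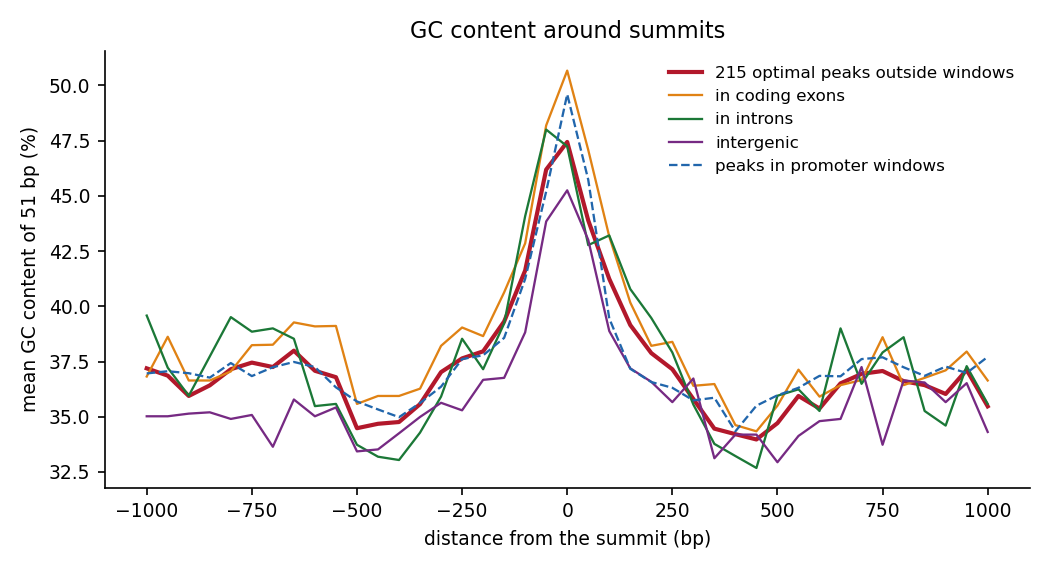
Mean GC content of 51 bp windows by distance from the summit, for members, their 3 largest classes and promoter-window peaks. All lines rise within about 150 bp of the summit, to 47.4% for members and 49.6% for promoter-window peaks at 0 bp.

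Most of the stronger members, and few of the weaker ones, had one of the strongest calls of each replicate nearby. A member counted as present in a replicate where one of its 665 strongest calls had a summit within 200 bp. Each full replicate list holds 30000 calls. Within 200 bp only 1 of 215 members had no call at all in replicate 1, and 0 had none in replicate 2. By the 665 strongest calls, 142 members (66.05%) were present in replicate 1 and 127 (59.1%) in replicate 2. In both replicates 73 were present (34.0%, interval 28.0 to 40.5%). The same shares of all optimal peaks were 72.6%, 69.2% and 48.9%, and 56.0% of promoter-window peaks were present in both. Of the 25 members of highest signal, 23 were present in both, of the next 50, 37 (74.0%), of members 76 to 145 by signal, 10 (14.3%), and of members 146 to 215, 3 (4.29%). Promoter-window peaks in the same signal ranges had 96.9%, 71.7%, 27.03% and 7.59%. Another 69 members were present in replicate 1 alone, 54 in replicate 2 alone and 19 in neither. The optimal peaks were the first 665 calls of the pooled list by signal, so a peak strong in 1 replicate could enter it. Adjacent optimal peaks can share a replicate call, which was the case for 4 of 215 members.

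**Figure D5:**
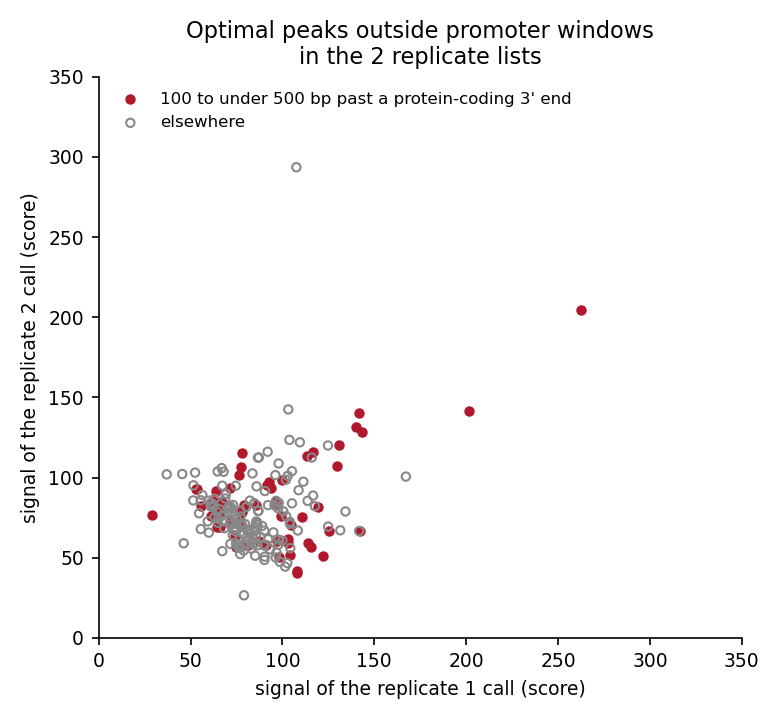
Signal of the nearest call within 200 bp in replicate 1 (horizontal) and in replicate 2 (vertical) for members with a call in both lists, filled where the summit lies 100 to under 500 bp past a protein-coding 3' end. The point at the top right is dos-3 (262.7 and 204.7), and the highest one is the mdt-26 member (107.6 and 293.6), whose replicate 2 call is also the nearest one of a promoter-window peak 203 bp away.

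Across the 214 members with a call in both replicates Pearson's r of log2 signals was 0.13 and Spearman's rho -0.01, and across 436 promoter-window peaks 0.44 and 0.39. These signals are of the nearest call within 200 bp, which for 10 of the 214 members was not the strongest call within that distance in 1 or both replicates. With the strongest call, a setting chosen after seeing the data, the values were 0.18 and 0.02 for members, and 0.50 and 0.42 for promoter-window peaks. The points share libraries and were selected on the pooled signal, so these values are descriptions. By the nearest call, and besides mdt-26, the ranks differed most beside ztf-16, a zinc finger gene (26592 in replicate 1 and 491 in replicate 2), in rml-1 (14529 and 162), in dsh-1, a Dishevelled gene of Wnt signalling (561 and 26530), and beside osm-11, a Notch co-ligand gene (165 and 8143). The strongest calls within 200 bp ranked 475 in replicate 2 at dsh-1 and 1945 in replicate 1 beside ztf-16, so that dsh-1 counted as present in both replicates. Each of these 4 members had a pooled signal at or below 149.9.

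Some genes and stretches held several members. Y43F8B.2, Y54G2A.11 and mnk-1, a MAPK-interacting kinase gene, held 3 each, and lit-1, mdt-26, mtm-3, suro-1, unc-108 and zyx-1 held 2 each. In 7 groups of 3 or more members with gaps of at most 10000 bp lay 24 members in all. Some of these are adjacent summits whose peak intervals overlap. They lay 219 bp apart in Y43F8B.2, 243 bp in Y54G2A.11, 200 bp in suro-1 and 216 bp beside tent-5. No expected number of such genes or groups was worked out, so these counts are descriptions. By chromosome, III held 48 members (22.3%, interval 17.3 to 28.3%), against 15.2% of the sequence outside windows and 17.67% of other pooled calls there. X held 29 (13.5%, interval 9.56 to 18.7%), against 18.3% of that sequence, 15.13% of those calls and 19.8% of promoter-window peaks. The shares of other calls lay within the member intervals for both chromosomes, and so did the sequence share for X. No optimal peak lay within 20000 bp of sdz-12 itself or of unc-119, the genes carried by the transgene. Within that distance the pooled list held 0 of 30000 calls at sdz-12 and 24 at unc-119. The gap between the 2 calls on either side of sdz-12 was 61607 bp, against a median gap of 1819 bp, and 15 of 29994 gaps were at least as long.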

How the data were processed

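Binding of tagged SDZ-12 was mapped by chromatin immunoprecipitation and sequencing in 2 replicates. The authors called peaks per replicate and on pooled alignments against a control, and selected an optimal list by IDR (irreproducible discovery rate), per the deposited text files. Positions are on ce11, per the labels. The deposited signal is the authors' own score for each call, and the deposited −log10 q-value broke ties in rank. The sources used here do not state the caller or its settings. No counts were used, so depth is unknown and the control was not analysed here. Replicates were not averaged.

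The members and lists were chosen with earlier results of these data known. Genes came from Ensembl release 115 (46890 genes, 19973 protein-coding), and sequence from RefSeq, with 0 calls past a chromosome end. A summit took the first matching class in the order 5' UTR, then coding exon, then 3' UTR, other exons, introns and intergenic. Exon and intron numbers are those of the longest host transcript that holds the summit in that class. Named genes were those of the 25 strongest members, the 5 strongest per class, 3 at each side of a window edge, hosts of several members, the 5 most unequal in replicate rank and up to 3 per list. Other names were chosen after their values were seen. Shares have 95% Wilson intervals, and a count of 0 is given as the share that 3 counts allow. No test over regions was made. Python 3.11.15, NumPy 2.4.6, SciPy 1.17.1, pandas 2.3.3 and matplotlib 3.10.9 were used, and the position code was tested on simulated annotation. Alternatives changed the windows, the lists, the class order, the position used, and the support and GC settings.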

Additional observations from a re-analysis of the deposited data

How the results depend on the processing

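Of 127 values recomputed under 20 alternative settings, 99 stayed within the interval of the reported value, 28 moved and 0 reversed in sign. Only the GC difference could reverse, since counts, shares, distances, signals and GC contents cannot be negative. For the number of members the interval was a wide set band, 143.3 to 322.5, and not a counting interval. The 147 members left by windows of 2000 bp upstream therefore counted as within it. With windows of protein-coding genes only there were 410 members, with coding exons 23.4%, signal 160.7, support in both replicates 42.9%, distances of 493 bp to a 5' end and 215 bp to a 3' end, 22.4% past a 3' end, 54.4% at transcript starts and a GC difference of 11.4 points. Windows of 500 bp upstream gave a 5' distance of 1296 bp and 27.2% at transcript starts, windows of 2000 bp gave 2093 bp and 20.4% intergenic, and windows at transcript starts left 0% there by construction. Among the stronger ranks 77 members were left, with signal 187.6, support 77.9% and 39.0% past a 3' end. Support was 26.5% within 100 bp and 64.7% with 2 times as many calls. The GC difference was 10.8 points over 51 bp and 11.4 points with flanks at 500 bp.

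Leaving out each replicate in turn gave 244 to 247 members, with 29.1% to 42.6% in coding exons, 24.6% to 30.8% in introns, 24.2% to 27.1% intergenic, 9.02% to 12.2% at transcript starts, 22.7% to 24.2% past a 3' end, a median GC content of 43.6% to 48.5% and a GC difference of 5.94 to 9.41 points. Signal and support have no value there. The share past a 3' end without replicate 2 (22.67%) lay just below the interval of the reported share (22.77 to 34.74%). Without replicate 1 (24.18%) it lay within that interval, and both values were below the reported 28.37%. Settings chosen after seeing the data, which were 3' ends of genes of any kind (29.3%), of transcripts (26.1%) and leaving out peaks with a neighbouring optimal summit within 300 bp (26.9%), kept the share past a 3' end within its interval. No paired analysis was possible because the study has 1 group. Where values moved, the cause was not tested unless the setting itself changed the members. Depth is unknown, so weak members may be unresolved.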
